A study of Brassica rapa with 8 samples.

Results

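Of the 38200 gene models measured in *Brassica rapa* Chiifu-401-42, 56 had FPKM above 50 in all 8 samples and kept the highest of 6 tissue values within 2 times the lowest. FPKM is a fragment count scaled for the length of the transcript and the size of the library. Leaf and root each entered that rule as the mean of 2 samples, and stem, flower, silique and callus as 1 sample each. These 56 steady genes were 10.8% of the 517 genes that exceeded FPKM 50 throughout and 0.147% of all gene models. They were chosen by their measured FPKM, both its level and its range over tissues, so both are given here as a description. Differences between tissues, leaf and root included, were bounded by the same rule, and counts of genes called for them describe the choice and test nothing about these genes. The label, high and steady, holds for the tissue means, and 20 of the 56 exceeded a 2-fold range once the 8 samples were taken one by one.

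All samples were tissues of Chiifu-401-42, a Chinese cabbage line, and the labels name no treatment or mutation that sets them apart. Root, stem and leaf were from plants of 7 weeks. Flowers, without the floral shoot, were collected on the same day from plants in bloom. Siliques were taken 15 days after pollination, and callus, a mass of dedifferentiated cells, came from tissue culture. The labels give 15 to 25°C for the greenhouse and 25°C for the callus, which was cultured under light, and the methods of the study give a single greenhouse temperature within that range. The methods of the study state that the 2 leaf samples, and likewise both root samples, came from different batches of plants. The 4 tissues with 1 sample have no replicate check, and in bulk tissue fewer cells of a type and less RNA per cell cannot be told apart.

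Genes needed by every living cell, for protein synthesis, the cytoskeleton, protein turnover and central metabolism, are often called housekeeping genes. Those with a high and even transcript level serve as internal references when the expression of other genes is compared between organs. *B. rapa* descends from an ancestor with a triplicated genome, so many such genes are kept in several copies with different identifiers. The deposited table pairs its identifiers with no gene names. The reference gene list matched 1 of the 38200 identifiers and 0 of the 56, so the genes are given by identifier, position and level, and marker genes of each tissue could not be looked up.

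The number of fragments behind a value was derived from the distance between FPKM and its upper 95% bound. Summed over the 29292 gene models with a length estimate, these implied fragments ran from 7923917 in silique to 16153812 in leaf 1. Depth was taken as the median over genes of fragments per FPKM relative to stem. It was lowest in stem (1) and silique (1.053) and highest in leaf 1 (1.898) and root 1 (1.903). For the 56 genes the fragments per FPKM followed 1 length per gene in every sample, to within 0.0366%. The steady genes rested on 142 to 4441 fragments in their lowest sample and on 434 to 10158 in their highest. The upper bound lay at most 16.8% above FPKM in any sample, with a median over genes of 6.94% for the widest interval. These intervals cover counting error only, not differences between plants.

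The mean FPKM over 6 tissues ran from 61.2 to 514 with a median of 111, against 174 for the 461 other genes above 50 in every sample. A mean of at most 100 was found for 21 genes, one of 100 to 200 for 27 and one above 200 for 8. In the order of all gene models by this mean, the steady genes took places from 46 to 2146. Together they made up 1.02% of the summed FPKM in callus and 1.49% in root 2, the lowest and highest of the 8 samples. Their median FPKM was lowest in leaf 2, at 102, and highest in root 2, at 129.6. The other samples lay between, with stem at 122, root 1 at 119, silique at 118, leaf 1 at 113, flower at 109.7 and callus at 109.

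**Figure D1:**
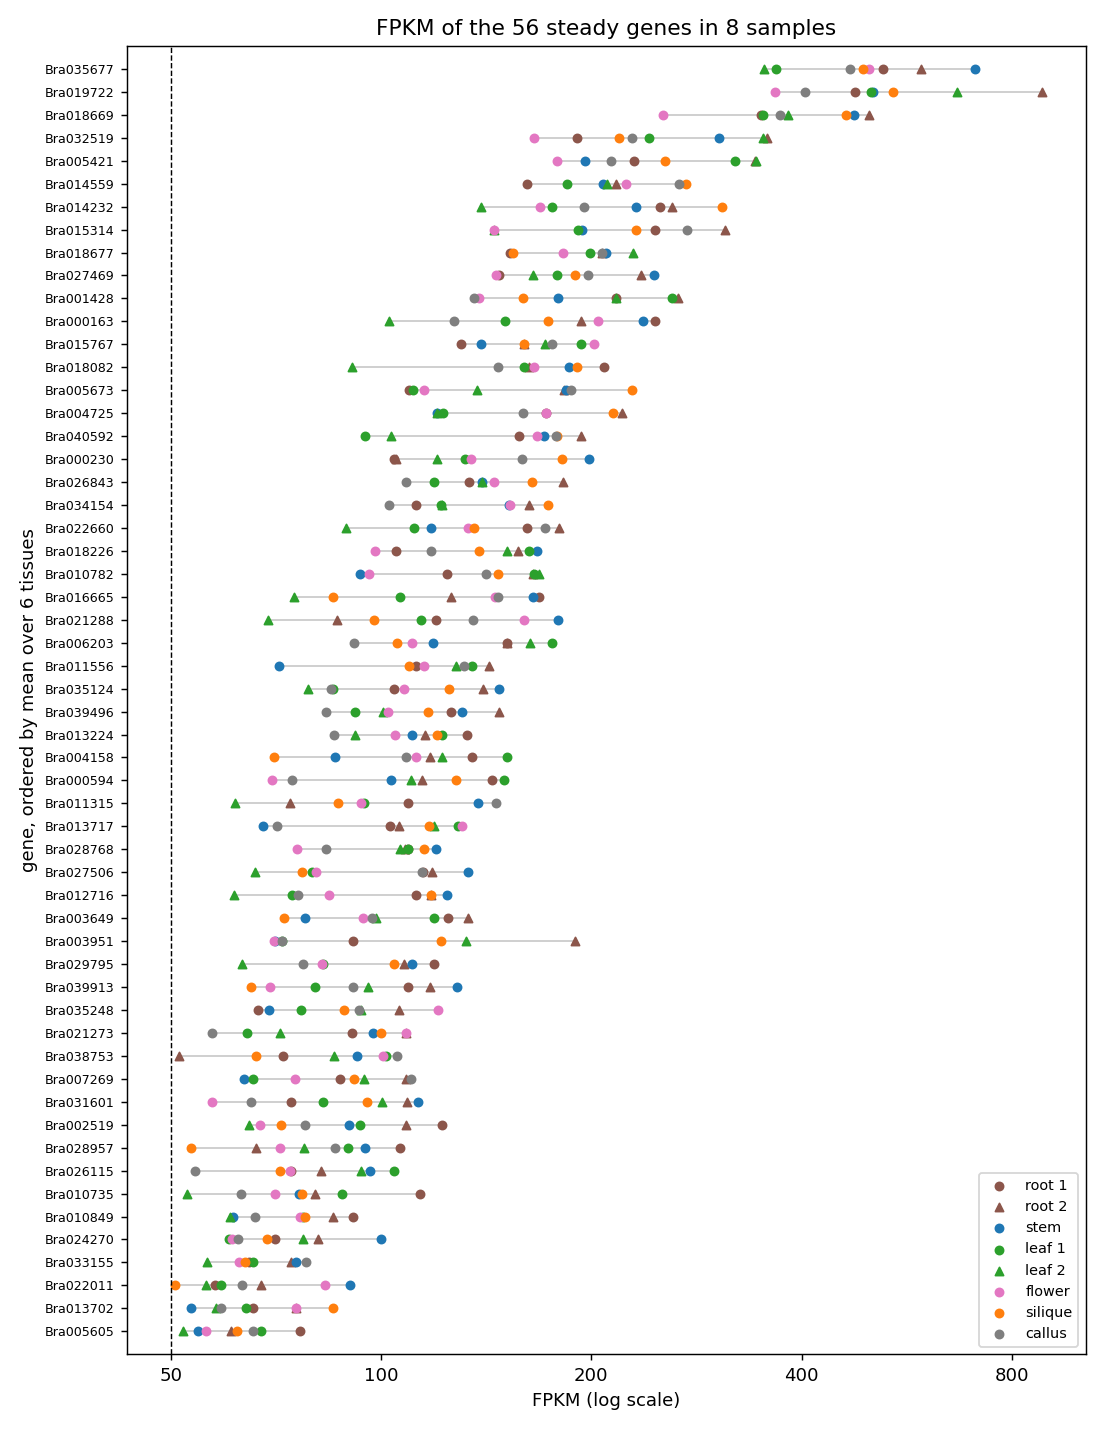
FPKM of each steady gene (rows, ordered by the mean over 6 tissues) in the 8 samples on a log axis, with circles for sample 1 or a single sample and triangles for sample 2. The dashed line marks FPKM 50, and grey bars join the lowest and highest sample of a gene, from 1.39-fold apart in Bra033155 to 2.69-fold in Bra003951.

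Bra019722 and Bra035677 had the highest levels. Bra019722, on Scaffold000029 from 706986 to 708894, had FPKM of 476 and 883 in root samples 1 and 2, 506 in stem, 502 and 667 in leaf samples 1 and 2, 405 in callus, 541 in silique and 367 in flower. Root 2 held its highest value, both samples numbered 2 exceeded those numbered 1, and flower was lowest. Bra035677, on Scaffold000108 from 178760 to 179349, had 524 and 592 in root samples 1 and 2, 708 in stem, 368 and 353 in leaf samples 1 and 2, 469 in callus, 489 in silique and 499 in flower. It was highest in stem and lowest in leaf, and the leaf samples lay below all others.

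Bra018669, on Scaffold000026 from 485347 to 487256, followed with 349 and 499.6 in root samples 1 and 2, 475 in stem, 352 and 382 in leaf samples 1 and 2, 373 in callus, 463 in silique and 253 in flower. Flower was its low point, and the leaf samples differed by less than the root samples. Bra005421, on Scaffold000004 from 5408663 to 5409583, had 230.1 and 343 in root samples 1 and 2, 196 in stem, 321 and 344 in leaf samples 1 and 2, 214 in callus, 255 in silique and 178 in flower. Root 2 reached the level of leaf while root 1 did not. Bra032519, on Scaffold000082 from 462340 to 463458, had 191 and 357 in root samples 1 and 2, 305 in stem, 242 and 353 in leaf samples 1 and 2, 229 in callus, 219 in silique and 166 in flower. Here sample 2 of leaf and of root exceeded every other sample. These 5 genes had the highest lowest-sample FPKM of the steady genes, from 166 in Bra032519 to 367 in Bra019722.

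Over the 6 tissues the coefficient of variation ran from 8.89% to 31.3% with a median of 21.3%, against 45.3% for the 461 other high genes. The tissue-specificity index T, which is 0 for equal values and 1 for expression in a single tissue, had a median of 0.258 against 0.482. The highest tissue exceeded the lowest by 1.26-fold to 2.00-fold, with a median of 1.79, and by at most 1.5-fold in 7 genes, by 1.5-fold to 1.8-fold in 23 and by more in 26. Steady genes were not limited to the high levels. Of the 19532 genes with a lower 95% bound above 0 in every sample, 1260 (6.45%) stayed within 2-fold at any level. That share was 3.28% where the lowest sample was at most FPKM 5, 9.10% from 5 to 10, 12.3% from 10 to 25, 13.8% from 25 to 50, 9.95% from 50 to 100, 13.6% from 100 to 200 and 12.0% above 200.

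**Figure D2:**
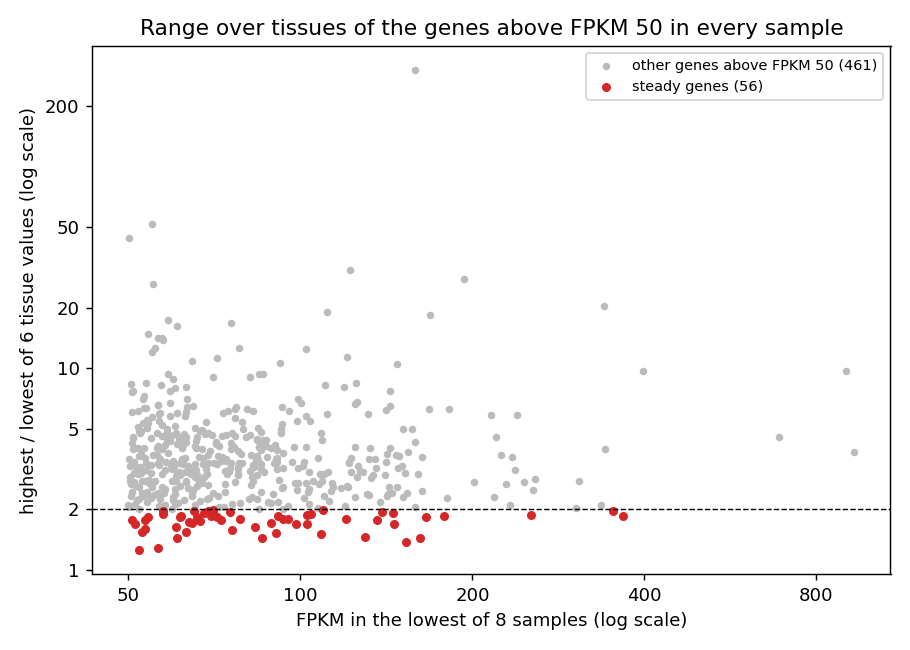
Ratio of the highest to the lowest of 6 tissue values against FPKM in the lowest of 8 samples, both on log axes, for the 517 genes above FPKM 50 in every sample. Red points are the 56 steady genes below the dashed line at a ratio of 2, and the median ratio was 1.79 for them and 3.48 for the grey points.

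The evenest profile was that of Bra005605, on Scaffold000004 from 6493547 to 6495434, with FPKM of 76.7 and 60.9 in root samples 1 and 2, 54.8 in stem, 67.3 and 52.2 in leaf samples 1 and 2, 65.6 in callus, 62.3 in silique and 56.1 in flower. Root 1 was its highest sample and leaf 2 its lowest, and stem and flower lay close to leaf 2. Bra033155, on Scaffold000086 from 449290 to 450562, had 64.7 and 74.4 in root samples 1 and 2, 75.7 in stem, 65.6 and 56.3 in leaf samples 1 and 2, 78.2 in callus, 63.8 in silique and 62.7 in flower, a CV of 10.5%. In this gene the intervals of 18 of the 28 pairs of samples overlapped, the most of any steady gene, and all 8 values lay within 1.39-fold. Bra018677, on Scaffold000026 from 522494 to 524748, was steady at a higher level, with 153 and 207 in root samples 1 and 2, 210.2 in stem, 199 and 229 in leaf samples 1 and 2, 207 in callus, 154 in silique and 182 in flower. Root 1 and silique were its low samples and leaf 2 its high one.

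Bra013224, on Scaffold000013 from 4135434 to 4138696, had FPKM of 133 and 116 in root samples 1 and 2, 111 in stem, 122 and 91.8 in leaf samples 1 and 2, 85.6 in callus, 120.3 in silique and 105 in flower. Callus and leaf 2 were lowest and root 1 highest. Bra010849, on Scaffold000010 from 3563601 to 3565489, had 91.2 and 85.4 in root samples 1 and 2, 61.5 in stem, 77.4 and 60.8 in leaf samples 1 and 2, 66.1 in callus, 77.7 in silique and 76.5 in flower, with root on top and stem and leaf 2 at the bottom. For these 5 genes with the lowest CV (8.89% to 13.2%), the 8-sample range was 1.39-fold to 1.55-fold. In no steady gene did the 95% interval of the highest sample reach that of the lowest, so even these ranges exceeded counting error. Across the 56 genes a median of 7 of the 28 sample pairs had overlapping intervals.

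At the other end, Bra003951, on Scaffold000003 from 4483051 to 4483662, had the highest CV, 31.3%. Its FPKM was 91.2 and 189 in root samples 1 and 2, 70.4 in stem, 72.2 and 132 in leaf samples 1 and 2, 72.2 in callus, 122 in silique and 70.3 in flower. The root mean of 140.3 ± 69.5 (SD, n = 2) averaged values 2.08-fold apart, and root 2 alone exceeded the ratio of 2 against flower, so its 8 samples spanned 2.69-fold. Bra021288, on Scaffold000033 from 1502462 to 1504688, ran the other way, with 119.8 and 86.4 in root samples 1 and 2, 179 in stem, 114 and 68.9 in leaf samples 1 and 2, 135 in callus, 97.8 in silique and 160.0 in flower. Here both samples numbered 2 were low and stem and flower were high.

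Bra011315, on Scaffold000011 from 1610077 to 1610865, had 109 and 74.2 in root samples 1 and 2, 138 in stem, 94.5 and 61.8 in leaf samples 1 and 2, 146 in callus, 86.7 in silique and 93.7 in flower, highest in callus and stem and lowest in leaf 2. Bra039913, on Scaffold000181 from 152744 to 153757, had 109 and 118 in root samples 1 and 2, 129 in stem, 80.4 and 95.8 in leaf samples 1 and 2, 91.2 in callus, 65.2 in silique and 69.5 in flower, with stem and root above flower and silique and leaf between them. Bra000594, on Scaffold000001 from 3185528 to 3188173, had 144 and 115 in root samples 1 and 2, 103 in stem, 150.0 and 110.3 in leaf samples 1 and 2, 74.5 in callus, 128 in silique and 69.7 in flower, with flower and callus below all others.

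The rule drew a line through a continuous distribution. Just inside the ratio limit lay Bra003951 at 1.995, Bra005673 at 1.988 and Bra039913 at 1.972. Just outside were Bra016689 at 2.0006, Bra011350 at 2.006 and Bra020169 at 2.013, with 16 genes between ratios of 2 and 2.1. At the floor, the lowest single values were 50.8 for Bra022011 in silique, 51.4 for Bra038753 in root 2 and 52.2 for Bra005605 in leaf 2. Bra013406, with 48.7 in root 1, Bra014713, with 48.4 in flower, and Bra026231, with 47.9 in leaf 2, kept within 2-fold but fell just under 50.

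Bra022011, on Scaffold000036 from 772529 to 773543, had FPKM of 58.0 and 67.4 in root samples 1 and 2, 90.4 in stem, 59.1 and 56.1 in leaf samples 1 and 2, 63.3 in callus, 50.8 in silique and 83.1 in flower, with stem and flower on top. Bra005673, on Scaffold000005 from 78070 to 79368, had 109.7 and 183 in root samples 1 and 2, 184 in stem, 111 and 137 in leaf samples 1 and 2, 187 in callus, 229 in silique and 115 in flower. Silique was its highest tissue, and root 2 matched stem and callus while root 1 matched leaf 1 and flower.

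Which tissue was highest differed from gene to gene. Stem was the highest tissue for 18 of the 56 genes (32.8% of the 19532 genes expressed in every sample), root for 12 (16.7%), silique for 9 (13.4%), leaf for 8 (11.2%), callus for 5 (13.0%) and flower for 4 (12.9%). The lowest tissue was flower for 14 genes (12.6%), leaf for 13 (21.9%), stem for 10 (7.35%), callus for 9 (33.9%), silique for 7 (15.5%) and root for 3 (8.73%). The percentages in parentheses are the shares of all expressed genes. The rule used these values, so nothing is read from the difference. No combination of highest and lowest tissue held more than 7 genes, the number with stem highest and flower lowest.

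Measured against each gene's own mean over 6 tissues, the median ratio was 1.11 in root, 1.08 in stem, 1.03 in silique, 0.933 in leaf, 0.927 in callus and 0.919 in flower. Root exceeded the gene's own mean in 43 of the 56 genes (54.5% of all expressed genes), stem in 34 (61.5%), silique in 31 (36.9%), callus in 23 (28.3%), leaf in 20 (31.1%) and flower in 17 (35.9%). In the 461 other high genes the shares were 73.1% for root, 65.1% for stem and 38.8% for silique. They were 23.9% for callus, 49.2% for leaf and 19.7% for flower. The rule used these values, so nothing is read from the differences. Within each tissue the genes spread on both sides, for stem from 0.624 to 1.40 times the own mean.

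**Figure D3:**
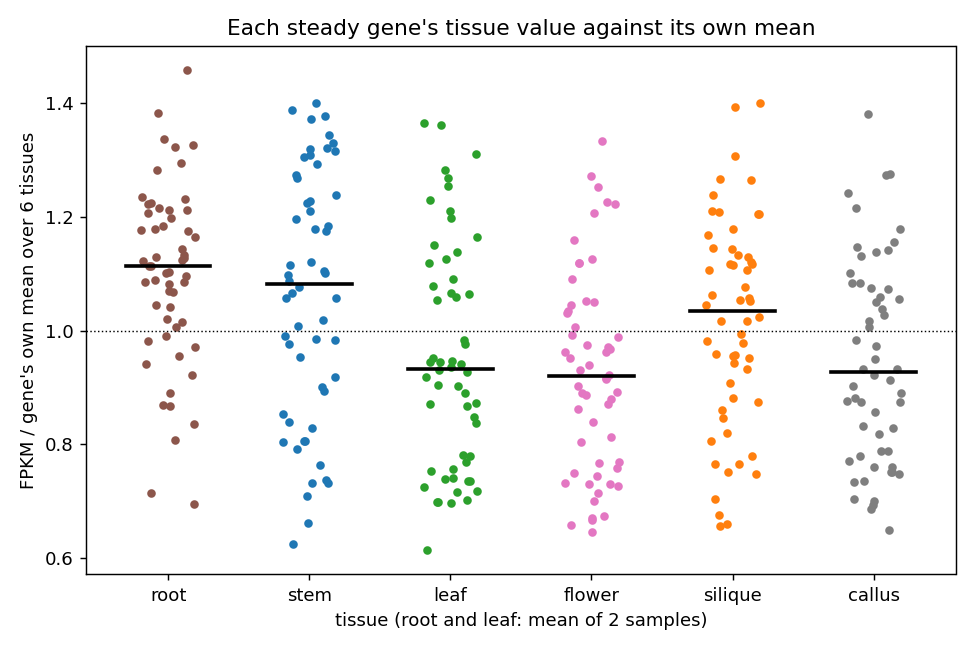
Tissue value of each steady gene divided by the gene's own mean over 6 tissues (points, with a black bar at the median) for root and leaf, each the mean of 2 samples, and the 4 single-sample tissues. Points lie above and below 1 in every tissue, and the medians run from 0.919 in flower to 1.11 in root.

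The gene that stood highest in each tissue gives the size of what 2-fold allowed. Bra003951 reached 1.46 times its own mean in root and Bra021288 1.40 times in stem. Bra005421 reached 1.36 times in leaf and Bra011315 1.38 times in callus. For flower it was Bra035248, on Scaffold000102 from 461877 to 463288, with FPKM of 66.7 and 106 in root samples 1 and 2, 69.2 in stem, 76.9 and 93.7 in leaf samples 1 and 2, 93.1 in callus, 88.5 in silique and 121 in flower, 1.33 times its own mean. For silique it was Bra014232, on Scaffold000015 from 2646684 to 2648748, with 251 and 261 in root samples 1 and 2, 232 in stem, 176 and 139 in leaf samples 1 and 2, 195 in callus, 307 in silique and 169 in flower, 1.40 times. In Bra035248 flower was above all other samples, and in Bra014232 silique was, with both root samples next.

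Leaf and root are the tissues with a second sample, so a difference between them can be set beside the spread within each. The rule capped this difference at 2-fold, and the values are a description. Both root samples lay above both leaf samples in 20 of the 56 genes (53.2% of the 25725 genes tested), both leaf samples above both root samples in 7 (22.7%), and the samples overlapped in 29. With limma on log2(FPKM + 1), 3 of the 56 genes passed an adjusted p of 0.05 (51.0% of all tested genes), all higher in root (34.6% of all tested genes were called higher in root and 16.3% higher in leaf). Since the rule used this contrast, nothing is read from the count. Of the 461 other high genes, 24.5% were called in either direction. The median leaf minus root difference was -0.20 on the log2 scale for the steady genes and -0.47 over all genes tested.

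Bra040592, on Scaffold000222 from 4914 to 6562, had FPKM of 157 and 193 in root samples 1 and 2, 171 in stem, 94.9 and 103 in leaf samples 1 and 2, 178 in callus, 179 in silique and 167 in flower. Leaf was set apart from all other tissues, with a log2 leaf minus root difference of -0.81 (SE 0.25). Bra022660, on Scaffold000038 from 1428725 to 1429696, had 162 and 179.7 in root samples 1 and 2, 118 in stem, 112 and 89.0 in leaf samples 1 and 2, 172 in callus, 136 in silique and 133 in flower, with leaf lowest and root and callus highest, and a difference of -0.77 (SE 0.25). Bra012716, on Scaffold000013 from 1334022 to 1334589, the shortest locus of the 56 with a span of 567 bases, had 112 and 118 in root samples 1 and 2, 124 in stem, 74.7 and 61.6 in leaf samples 1 and 2, 76.2 in callus, 118 in silique and 84.2 in flower. Its difference was -0.75 (SE 0.24). Without leaf 2, 0 of the 56 genes were called (38.8% of the genes tested), without root 1 also 0 (33.2%), without root 2 only 1 (38.0%) and without leaf 1 there were 5 (47.7%). At an unadjusted p under 0.05 in limma the first 2 numbers were 2 and 6. With the upper quartile or the median of ratios as the scale none of the 56 was called higher in root, and 1 and 2 genes were called higher in leaf (55.1% and 52.1% of the genes tested were called in either direction), so which direction was called depended on the scaling.

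Bra000163, on Scaffold000001 from 879429 to 881197, had a root mean of 219.9 ± 37.7 (SD, n = 2) and a leaf mean of 126 ± 33.7 (SD, n = 2). Its difference of -0.81 (SE 0.30) was about as large as that of Bra040592, with the samples of each tissue further apart. In the other direction the differences were smaller on the deposited scale. Bra038753, on Scaffold000152 from 47573 to 48951, had 72.5 and 51.4 in root samples 1 and 2, 92.5 in stem, 102 and 85.5 in leaf samples 1 and 2, 105 in callus, 66.3 in silique and 101 in flower, with root 2 the lowest sample, and a difference of 0.60 (SE 0.27). For Bra026115, on Scaffold000050 from 1096109 to 1099226, the leaf mean was 98.9 ± 7.62 (SD, n = 2) and the root mean 78.2 ± 5.34 (SD, n = 2), a difference of 0.33 (SE 0.24). For Bra015767, on Scaffold000019 from 765555 to 767212, they were 183 ± 15.5 (SD, n = 2) and 145 ± 21.5 (SD, n = 2), a difference of 0.33 (SE 0.26). Scaled by the median of ratios, the difference was 1.00 for Bra038753, 0.73 for Bra026115 and 0.74 for Bra015767. It was then -0.41 for Bra040592 and Bra000163 and -0.37 for Bra022660, so the order of size depended on the scaling.

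Across all 6 tissues, the limma F test called 0 of the 56 steady genes and 68.9% of the 27588 genes tested, at an adjusted p of 0.05. At an unadjusted p under 0.05 the number was also 0 of 56. The rule chose genes for a small range over these same 6 values, which bounds the outcome, so the count is no result about the steady genes and does not show that they did not differ between tissues.

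The rule averaged both samples of a tissue and did not use the difference between them directly. The floor of 50 in each sample and the limit on the tissue means still bound it in part. The sizes below are therefore descriptions, and nothing is read from their contrast with other genes. Over the steady genes, the median gene differed by 0.26 on the log2 scale between the leaf samples and by 0.33 between the root samples, against 0.29 and 0.32 in the other high genes and 0.41 and 0.37 in all genes expressed in every sample. A difference of at least 1.5-fold was found for 5 genes in leaf (8.93%) and 7 in root (12.5%), against 16.5% and 24.1% of the other high genes and 30.6% and 25.9% of the genes expressed in every sample. The larger of both samples exceeded the smaller by up to 1.83-fold in leaf and 2.08-fold in root. Bra003951 held both of these extremes.

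The difference between samples had the same sign in leaf and root for most of these genes, as it did for most of all tested genes. Sample 2 exceeded sample 1 in both tissues for 19 genes (11.6% of all tested genes) and was lower in both for 17 (64.5%). In 20 genes root 2 was above root 1 while leaf 2 was below leaf 1 (12.1%), and the opposite occurred in 0 (8.46%). Leaf 2 exceeded leaf 1 in 33.9% of the steady genes, 40.1% of the other high genes and 19.1% of the genes expressed in every sample. For root 2 above root 1 the shares were 69.6%, 68.5% and 23.5%, so the steady genes stood near the other high genes. Across the 56 genes the leaf and the root differences had a Pearson r of 0.802, and 0.707 across the 19532 genes expressed in every sample. These are descriptions across genes, which share libraries and are not replicates.

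**Figure D4:**
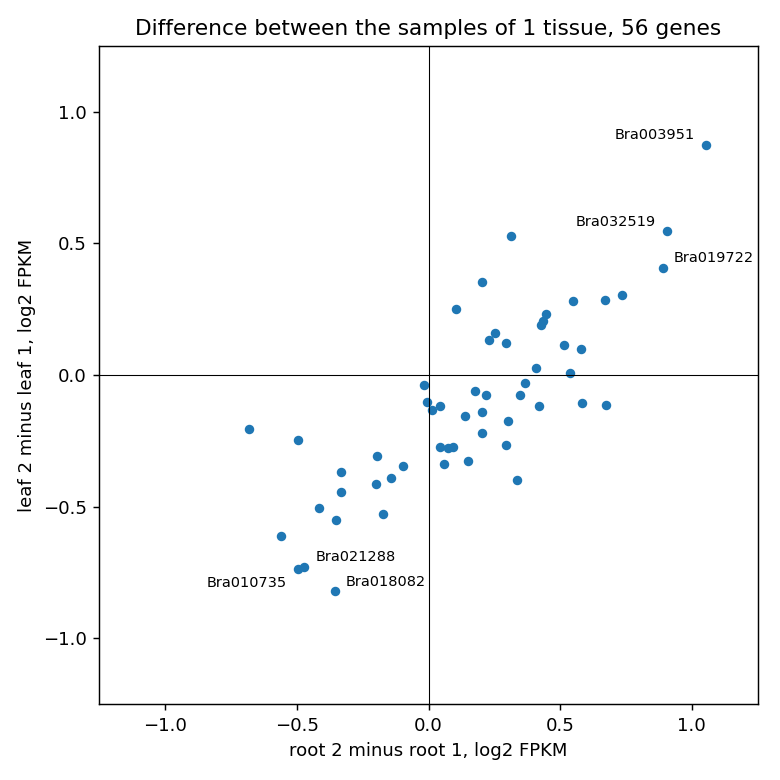
Difference of sample 2 from sample 1 in log2 FPKM, in root (x axis) and leaf (y axis), for each of the 56 steady genes. The 3 genes with the largest mean difference in each direction are named. No gene lies at the upper left, where leaf 2 would exceed leaf 1 and root 2 fall below root 1.

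In a limma fit of the sample number with tissue as a covariate, 7 of the 56 steady genes passed an adjusted p of 0.05 (28.8% of all tested genes), 3 higher in sample 2 (3.43% of all tested genes) and 4 higher in sample 1 (25.4%). This fit matches leaf with root by number alone, and no label says that equal numbers mark a shared batch. Its estimates and p-values depend on that numbering. Bra003951 had the largest difference, 0.96 (SE 0.16, limma, Benjamini-Hochberg adjusted p = 0.003) on the log2 scale. Bra032519 had 0.72 (SE 0.23, limma, Benjamini-Hochberg adjusted p = 0.045) and Bra035248 0.47 (SE 0.15, limma, Benjamini-Hochberg adjusted p = 0.046). Bra019722, whose mean difference was among the top 3, had 0.65 (SE 0.36, limma, Benjamini-Hochberg adjusted p = 0.197) and did not pass.

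In the other direction, Bra010735, on Scaffold000010 from 2958567 to 2960839, had FPKM of 114 and 80.5 in root samples 1 and 2, 76.3 in stem, 88.0 and 52.8 in leaf samples 1 and 2, 63.1 in callus, 77.0 in silique and 70.5 in flower. Its sample difference was -0.61 (SE 0.14, limma, Benjamini-Hochberg adjusted p = 0.014), while its tissue means stayed within 1.54-fold. Bra018082, on Scaffold000024 from 1336773 to 1338241, had 208 and 163 in root samples 1 and 2, 186 in stem, 160.4 and 90.8 in leaf samples 1 and 2, 147 in callus, 191 in silique and 166 in flower. Leaf 2 alone stood below the other samples, and the difference was -0.58 (SE 0.19, limma, Benjamini-Hochberg adjusted p = 0.043). Bra021288 had -0.59 (SE 0.15, limma, Benjamini-Hochberg adjusted p = 0.019) and Bra011315 -0.58 (SE 0.14, limma, Benjamini-Hochberg adjusted p = 0.016). The fit has 1 residual degree of freedom before moderation. After upper quartile scaling 14 steady genes were called, all higher in sample 2, and 0 higher in sample 1. Of the 25647 genes tested on that scale 12.0% were called, 1625 higher in sample 2 and 1453 higher in sample 1. The steady genes thus went from below the share over all genes to above it. So did the 461 other high genes, with 14.8% called on the deposited scale and 26.5% after upper quartile scaling. Which direction was called among the steady genes depended on the scaling, although none of the 6 genes with the largest differences changed sign.

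Within the steady genes, log2 FPKM of root 2 had a Pearson r of 0.910 with silique and 0.884 with leaf 2, next to 0.879 with root 1. Leaf 1 and leaf 2 had 0.905. Over the 19532 genes expressed in every sample, the same pairs gave 0.658 for root 2 with silique, 0.670 for root 2 with leaf 2, 0.964 for the root pair and 0.967 for the leaf pair. The rule left out genes that differ between tissues, so nothing is read from this contrast with all genes.

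The choice of leaf and root sample changed which genes were steady. The rule applied to sample 1 of leaf and root with the 4 single samples chose 69 genes, and to sample 2 with the same 4 it chose 48. Both lists shared 38 genes, 55.1% of the first and 79.2% of the second. All 38 were among the 56, which was certain, since values within the limits in both samples have a mean within them. When the leaf and root samples left out of the choice were added as values of their own, 36 genes remained above FPKM 50 and within 2-fold, 52.2% of the 69 and 75% of the 48. These are the 36 of the 56 that stayed within 2-fold over the 8 samples, so the number had to be the same for both lists. Both lists share stem, flower, silique and callus, so only the leaf and root values are separate between them.

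FPKM is scaled by all fragments of a sample. The rule chose the steady genes for a small range on that scale. Nothing is read from their contrast with the median gene there. Against each gene's own mean over 6 tissues, the median of the 19532 expressed genes ran from -0.56 in leaf 2 and -0.55 in callus to 0.16 in root 1 and 0.24 in stem, on the log2 scale. The median of the steady genes lay between -0.17 in leaf 2 and 0.22 in root 2. After scaling each sample by the median of ratios over the expressed genes, the steady genes stood at -0.38 in root 1, -0.34 in stem, 0.26 in callus and 0.19 in leaf 2.

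**Figure D5:**
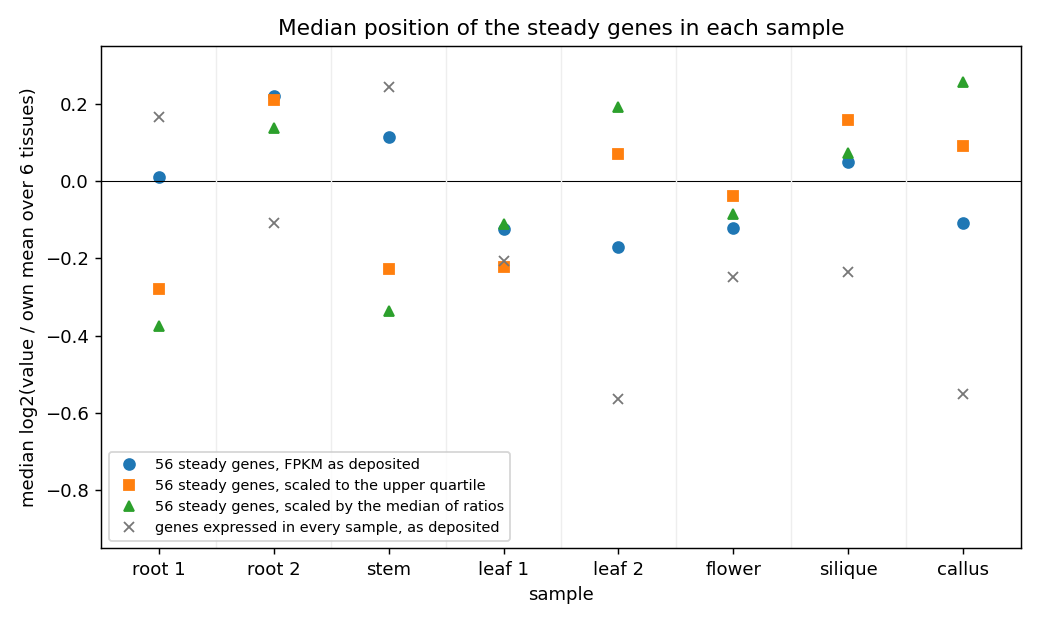
Median log2 ratio to the own mean over 6 tissues in each sample, for the 56 steady genes under FPKM as deposited and under 2 other scalings, and for the 19532 genes expressed in every sample. On the deposited scale the steady genes stay between -0.17 and 0.22 while the expressed genes run from -0.56 in leaf 2 to 0.24 in stem. The rule chose the steady genes on that scale, so nothing is read from this contrast.

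The list itself followed the scaling. Scaled to the same upper quartile, 89 genes passed the rule, of which 36 were among the 56, and scaled by the median of ratios 107 passed, 29 of them among the 56. Scaled to the same sum of FPKM the rule gave 56 genes with 44 shared, and to the same sum without the 4 highest genes of each sample 76 with 45 shared. Of the 56 genes, 24 passed under all 4 scalings and 6 under none. Bra005605, the gene with the lowest CV on the deposited scale, was one of those 6. The floor of 50 applied to the scaled values too, and its lowest deposited value was 52.2, in leaf 2. Leaving the list therefore need not mean a range above 2-fold. Losses to the floor and losses to the ratio were not counted apart. The other 5, named after their values were seen, were Bra003951, Bra004725, Bra005673, Bra013717 and Bra035248.

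A group of 17 genes, also named after their values were seen, passed in every one of 9 alternatives: the 4 scalings, each leaf or root sample left out, and the 8 samples taken singly. Bra018669 was the one with the highest mean, 393, followed by Bra018677 with 191 and Bra027469 with 190.4. Means between 100 and 150 were those of Bra026843, Bra034154, Bra018226, Bra035124, Bra039496, Bra013224 and Bra028768. The other members of the group, Bra029795, Bra039913, Bra031601, Bra002519, Bra028957, Bra024270 and Bra033155, had means from 68.5 to 93.5. Of the 5 genes with the lowest CV, Bra033155, Bra018677 and Bra013224 were among the 17. Passing in all alternatives describes these 8 samples and is not a test of stability in others.

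Bra028768 is an example from this group, on Scaffold000063 from 624991 to 629733. Its FPKM was 109 and 108 in root samples 1 and 2, 120.0 in stem, 109 and 106 in leaf samples 1 and 2, 83.3 in callus, 115 in silique and 75.8 in flower. The leaf samples and the root samples lay within 1.03-fold and 1.01-fold of each other, and flower and callus were low. Bra034154, on Scaffold000093 from 524579 to 525978, had 112 and 163 in root samples 1 and 2, 153 in stem, 122 and 122 in leaf samples 1 and 2, 103 in callus, 174 in silique and 153 in flower, with silique and root 2 high and callus and root 1 low. Bra027469, on Scaffold000056 from 229045 to 229884, had 147 and 236 in root samples 1 and 2, 246 in stem, 179 and 165 in leaf samples 1 and 2, 197 in callus, 189 in silique and 146 in flower, high in stem and root 2 and low in flower and root 1.

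Position and length were not used by the rule. The 56 genes lay on 40 of the 423 scaffolds, with 1 gene on each of 29 scaffolds and at most 4 on one. Only Bra018669 and Bra018677, both on Scaffold000026 and 35238 bases apart, had 10 or fewer genes between them, namely 7. Their profiles differed: Bra018669 was lowest in flower, with 253, whereas Bra018677 was lowest in root 1 and silique, with 153 and 154. The locus span had a median of 1604 bases, against 1446 for the other high genes and 2123 for all genes expressed in every sample.

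The fragments per FPKM, which are proportional to the transcript length used by the authors' software, gave a second measure of length. Set to 1 for the median of 29292 genes, it had a median of 0.687 in the steady genes, 0.581 in the other high genes and 1.08 in all genes expressed in every sample. Bra028957 was shortest by this measure, at 0.220, and Bra028768 longest, at 2.87. Split at the median, sample 2 exceeded sample 1 on average in 19 of the 28 shorter steady genes and in 10 of the 28 longer ones. Of the genes expressed in every sample and split at the same length, 38.2% of the shorter and 12.6% of the longer did so. Whether length has a part in the sample difference was not tested.

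Some loci were long or shared. A span above 10000 bases was found for 3 of the 56 genes (5.36%) and for 1.97% of all gene models. Bra026843, on Scaffold000053 from 802884 to 1100501, spanned 297617 bases, the longest locus in the table, and 65 other gene models overlapped it. Its fragments per FPKM were 0.785 of the median gene, so the transcript length behind the values was not long. Its FPKM was 134 and 182 in root samples 1 and 2, 139 in stem, 119 and 139.7 in leaf samples 1 and 2, 109 in callus, 164 in silique and 145 in flower, with root 2 high and callus low. Bra018226, on Scaffold000025 from 16730 to 38349, and Bra031601, on Scaffold000077 from 314306 to 326213, spanned 21619 and 11907 bases and overlapped 4 other gene models each. In all, 7 of the 56 loci overlapped another gene model, among them Bra015767, which overlapped 2. The sources used here do not say that counting used the strand, so fragments of overlapping models cannot be told apart and these 7 values are uncertain.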

How the data were processed

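RNA-seq of 8 samples from 6 tissues was used. The authors deposited FPKM values with lower and upper 95% confidence bounds, per the file headers 1 table for 38200 gene models, and the bounds are in FPKM too. According to the methods of the study, filtered reads were trimmed at the start and mapped with TopHat and Cufflinks computed FPKM. The submitters' processing notes give TopHat version 1.0.13, which differs from the version in the methods, and whether the deposited table comes from the run described there is not given in the sources used here. The table names no tool or build and gives scaffold positions.

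Steady genes had FPKM above 50 in each sample and a highest tissue at most 2 times the lowest. The members and lists were chosen with earlier results of these data known. Implied fragments were taken as 4 (FPKM/d) squared, where d is the width of the upper part of the interval. Leaf and root, all tissues, and sample number were tested with limma 3.58.1 (R 4.3.3, with a trend) on log2(FPKM + 1). P-values had Benjamini-Hochberg adjustment, and genes had to reach FPKM 1 in 2 or more of the samples tested. Fold changes on this scale understate changes of low genes. The fits were tested on simulated data. Labels call both leaf and both root samples biological replicates.

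Genes named were those with the 5 lowest and 5 highest coefficients of variation, the 5 highest minima, the highest in each tissue, the 3 largest leaf-root and sample differences in each direction, the longest and shortest loci, neighbours within 10 genes, and 3 at each side of each threshold. Others are marked. Gene lists and tissue markers were not used, since identifiers have no names here. Python 3.11.15, numpy 2.4.6, pandas 2.3.3 and matplotlib 3.10.9 were used. Alternatives covered thresholds, scaling, pseudocounts, filters, the replicate block and each sample left out.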

Additional observations from a re-analysis of the deposited data

Results flagged for a closer look

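For 2 of the named genes, leaf and root moved in opposite directions from sample 1 to sample 2, each beyond the 95% counting intervals. In Bra015767 the log2 difference of sample 2 from sample 1 was -0.17 in leaf and 0.30 in root. Its locus overlapped 2 other gene models, so its values are uncertain. In Bra026115 it was -0.16 in leaf and 0.14 in root. The difference between the tissues was not tested.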

How the results depend on the processing

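The number of steady genes, 56 as reported, was 186 with a floor of FPKM 25, 18 with a floor of 100, 7 with a ratio of 1.5, 204 with a ratio of 3, 36 with 8 sample values, 89 scaled to the upper quartile and 107 scaled by the median of ratios. It was 50 with the lower bound above 50, and 53 to 63 without 1 leaf or root sample. The genes shared by both sample sets rose from 38 to 63 with upper quartile scaling. The rule bounds both tissue comparisons for the steady genes, so their counts are descriptions. Of all genes tested, leaf against root called 51.0% as reported, 29.3% without a filter and 55.1% with upper quartile scaling. For any tissue difference these shares were 68.9%, 52.4% and 77.0%, and 75.2% with the median of ratios. Members called between leaf and root, 3 as reported, were 0 without a filter, 1 with upper quartile scaling and 0 to 5 with a sample left out. Called genes over the whole table, 13109 as reported, were 7487 to 11429 with a sample left out. For any tissue difference, 0 steady genes became 1 without a filter, 1 with upper quartile scaling and 3 with the median of ratios, and the 18996 genes called in all became 9803 to 11169 with a sample left out, where fewer samples enter the fit. For sample 2 against sample 1, 7 steady genes became 4 with a pseudocount of 0.1, 4 with a pseudocount of 10, 0 without a filter, 14 with upper quartile scaling and 13 with the median of ratios. Over the whole table, 7420 became 3612 with a pseudocount of 10, 0 without a filter, where 7897 had an unadjusted p under 0.05 in limma, 3078 with upper quartile scaling and 2930 with the median of ratios. Beyond the smaller number of samples, the cause was not tested.

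No label says that equal replicate numbers mark a shared batch, so the leaf and root samples share a number only, although their differences had an r of 0.707 across 19532 genes. With the replicate block, 20 steady genes were called between leaf and root, beside 19827 of 25725 genes (77.1%). For any tissue difference 17 steady genes were called, beside 26258 of 27588 genes (95.2%).

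Leaf minus root of the steady genes turned with the scaling, from a median of -0.20 to 0.00 with the upper quartile and 0.20 with the median of ratios. Of the leaf minus root and sample differences named by rule, none changed sign under the alternatives run. The sample difference was not refitted with a sample left out, since no residual degrees of freedom would remain.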
